A study of Mus musculus with 2 samples.

Results

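The 10 genes described here encode 3 linked signalling systems of blood vessels and their surrounding stroma. They are the platelet-derived growth factors Pdgfa and Pdgfb with their receptors Pdgfra and Pdgfrb, the vascular endothelial growth factor Vegfa with its receptors Kdr and Flt1, and the angiopoietins Angpt1 and Angpt2 with their receptor Tek. They were chosen by name and make up 10 of the 32285 genes listed in the count matrices, and all 10 were found. The study made 1 single-cell library per genotype, and these 2 libraries were compared. The KO library came from the fourth mammary gland of virgin C57BL/6 female mice aged 6 to 8 weeks with a deletion of Gpm6a, which encodes a neuronal membrane glycoprotein. The WT library came from wild-type animals of the same strain, age and gland. Each library holds cells sorted as DAPI-negative (living) from 3 littermates, so animals were pooled. How the deletion was made is not given in the sources used here. With 1 library per genotype no difference has a replicate check, and no test of KO against WT was made.

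Platelet-derived growth factors are secreted dimers that act on receptor tyrosine kinases of mesenchymal cells. PDGF-B released by endothelium is the classical signal that recruits Pdgfrb-bearing pericytes and smooth muscle to vessels. Vegfa is the main growth signal for endothelium and acts through Kdr (VEGFR2), while Flt1 (VEGFR1) binds the same ligand and largely acts as a decoy. Angpt1 activates the endothelial receptor Tek (TIE2) and stabilises vessels, and Angpt2 is a context-dependent antagonist stored in endothelial cells. In the mammary gland, capillaries and fibroblasts surround an epithelium of contractile basal cells, luminal progenitors and hormone-sensing luminal cells.

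The values are unique molecular identifiers (UMIs, counts of distinct captured transcripts) from droplet-based 3′ sequencing, summed over the cells of a class in a library and divided by all UMIs of those cells, and are given as CPM, the usual depth-scaled count. The KO library kept 10452 cells with a median of 9507 UMIs, and the WT library 10777 cells with 11130. Classes were named from markers that include none of the 10 genes: 3044 KO and 3088 WT epithelial cells, 4612 and 3884 fibroblasts, 183 and 501 mural cells, 215 and 242 vascular endothelial cells, 39 and 30 lymphatic endothelial cells (led by Glycam1, and also carrying 3 of 5 high endothelial venule markers), and 2024 and 1234 immune cells. The mural cells all carried smooth muscle markers. Pericytes formed no cluster of their own: 90 KO and 86 WT barcodes carried pericyte and endothelial markers together and are given as a group apart. A protocol label calls the sorted cells epithelial, but fibroblast, immune and vascular markers defined most of the named cells. Clusters that could not be named held 3.05% of KO and 16% of WT cells. The 2 libraries share 33 barcode sequences. Gpm6a, the deleted gene, had 29 UMIs (0.225 CPM) in KO and 288 UMIs (1.88 CPM) in WT, and 27 and 78 UMIs over the named cells alone. The deleted stretch is not given in the sources used here, and 3′ counts outside it do not check the deletion.

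**Figure D1:**
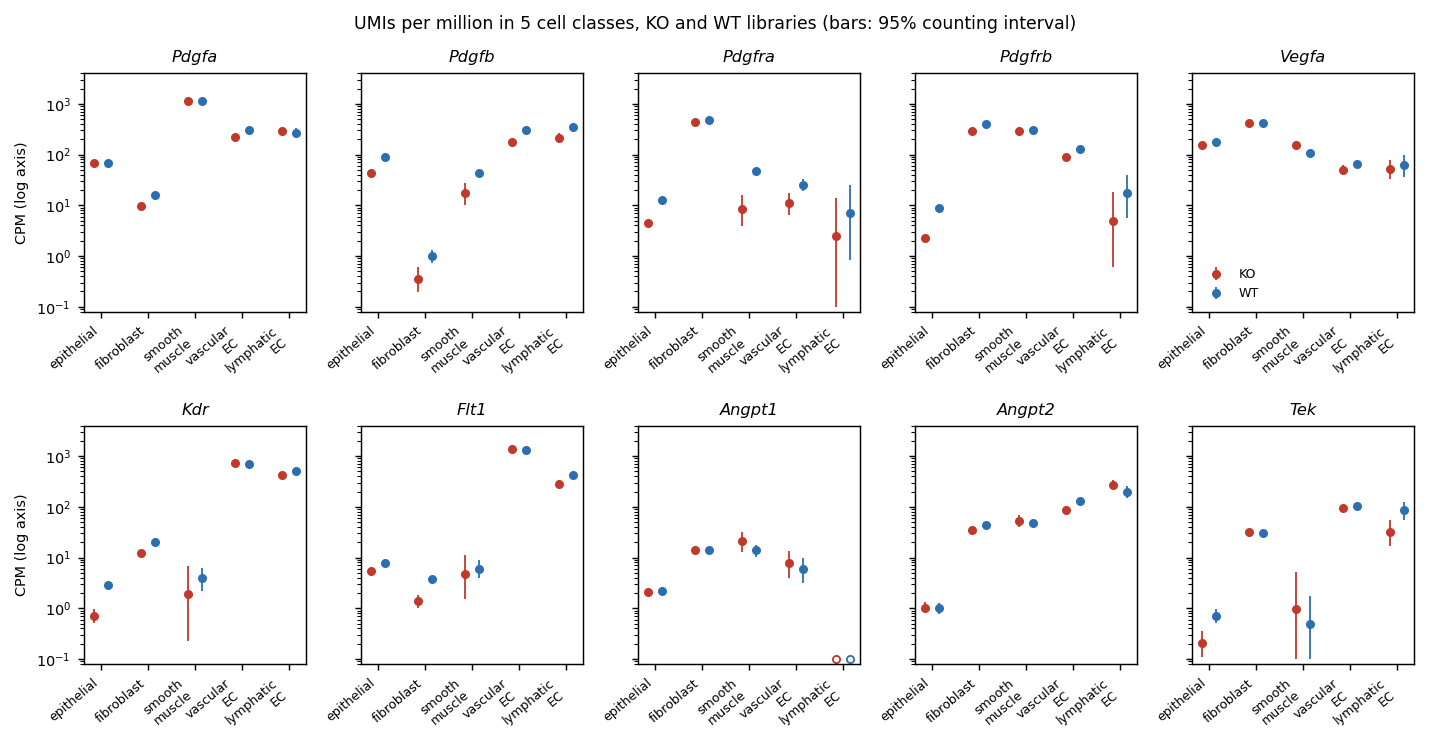
Level of each of the 10 genes (CPM, log axis, 1 panel per gene) in 5 cell classes, with the KO library left of the WT library in each class. Points are class sums, bars are exact 95% Poisson intervals of counting error, and open points are 0 UMIs; Kdr and Flt1 stand highest in vascular endothelial cells, Pdgfra in fibroblasts and Pdgfa in smooth muscle in both libraries.

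Among the ligands, Pdgfa, whose protein binds Pdgfra, had its highest level in vascular smooth muscle. By number, epithelial cells gave 53.3% of its UMIs in KO and 31.1% in WT, and mural cells 15% in KO and 33% in WT. Mural cells held 1156 CPM in the KO library and 1122 CPM in the WT library (1219 KO and 4630 WT UMIs), and the counting intervals of the libraries overlap. Vascular endothelial cells held 222 CPM in KO and 301 CPM in WT, and lymphatic endothelial cells 295 CPM in KO and 268 CPM in WT. The fibroblasts, which carry its receptor, held only 9.88 CPM in KO and 16.2 CPM in WT. In the epithelium the order was basal (118 CPM in KO and 109 CPM in WT), luminal progenitor (68.3 CPM in KO and 62.2 CPM in WT) and hormone-sensing (41.8 CPM in KO and 38.1 CPM in WT). It was the same in both libraries, with no overlap between neighbouring subtypes. Within the endothelium Pdgfa differed between vessel types: the arterial cluster, with all 6 arterial markers, held 667 CPM in KO and 595 CPM in WT. The venous cluster held 197 CPM in KO and 210.5 CPM in WT and the capillary cluster 43.5 CPM in KO and 67 CPM in WT. The 8 pericyte markers differed too, summing to 1952 CPM in KO and 2084 CPM in WT in the arterial cluster. They summed to 363 CPM and 835 CPM in the venous and 384 CPM and 753 CPM in the capillary cluster. In smooth muscle they summed to 1994 CPM in KO and 1377 CPM in WT. The part of mural transcripts in arterial Pdgfa was not tested. The log2 ratio of KO to WT (1 CPM added to each level) was 0.04 in mural cells, -0.02 in epithelial cells, -0.44 in vascular endothelial cells and -0.66 in fibroblasts, so no class reached 2-fold. The arterial cluster held 24 KO and 42 WT cells and the capillary cluster 117 KO and 90 WT cells. The part of this make-up in the endothelial ratio was not tested. Pdgfa lies at chr5:138976014-138997370, minus strand (GRCm38).

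Pdgfb, the ligand that binds both receptors, was found in vessels, basal cells and macrophages, and it was lower in KO in 10 of the 10 cell types that had at least 20 UMIs over both libraries. These types share the same 2 libraries, and the share of all genes lower in every measured type was not counted. By number, epithelial cells gave 72.5% of Pdgfb UMIs in KO and 62.8% in WT. Vascular endothelial cells gave 7.13% in KO and 8.11% in WT, and immune cells 9.09% in KO and 11.4% in WT. Vascular endothelial cells held 174 CPM in the KO library and 307 CPM in the WT library, a log2 ratio of -0.82 (95% counting interval of the ratio with no CPM added -1.03 to -0.62; later intervals of ratios are of the same kind). Basal cells held 144 CPM in KO and 202 CPM in WT (log2 ratio -0.48). Luminal progenitors held 22.4 CPM in KO and 45.5 CPM in WT (-0.99) and hormone-sensing cells 8.84 CPM in KO and 17.8 CPM in WT (-0.94). In macrophages it stood at 48.7 CPM in KO and 138 CPM in WT, a log2 ratio of -1.48 (-1.70 to -1.31). Macrophage clusters 25s0 and 25s1 (29 KO and 72 WT cells) also carried the 5 basal markers, summing to 5724 CPM in KO and 3565 CPM in WT, and held Pdgfb at 108 CPM in KO and 212 CPM in WT. Without them, a choice made after the data were seen, macrophages held 38.9 CPM in KO and 103 CPM in WT (log2 ratio -1.39), with basal markers at 39.1 CPM in KO and 83.9 CPM in WT. The 8 epithelial markers still summed to 3051 CPM in KO and 3104 CPM in WT in these macrophages. In epithelial cells that sum was 16357 CPM in KO and 13730 CPM in WT. The part of these markers in macrophage Pdgfb was not tested. In all macrophages a UMI was seen in 28.1% of KO and 54.3% of WT macrophages, or 6.05% and 18.5% with every cell thinned to 2000 UMIs. Fibroblasts, a class that should lack the gene, held 0.356 CPM in KO and 0.994 CPM in WT, and 0.239% of KO and 0.721% of WT fibroblasts had a UMI. The median fibroblast held 8470.5 UMIs of any gene in KO and 10812 in WT, and the median macrophage 13287 in KO and 16279 in WT.

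The capillary cluster held 132 CPM in KO and 247 CPM in WT, and the venous cluster 105 CPM in KO and 254 CPM in WT. A cluster led by Esm1, a gene of growing vessel tips, held 286 CPM in KO and 504 CPM in WT. In arterial cells Pdgfb stood at 272 CPM in KO and 300.5 CPM in WT, where the counting intervals (202 to 358 in KO and 246 to 363 in WT) overlap. These clusters are small (24 KO and 42 WT arterial cells, 39 and 61 venous cells). The 5 richest cells gave 64.7% of the KO and 41.1% of the WT venous Pdgfb UMIs. The 8 epithelial markers summed to 82.9 CPM in KO and 364 CPM in WT in vascular endothelial cells. In arterial cells they summed to 90.7 CPM in KO and 1668 CPM in WT. The 5 basal markers summed to 12.3 CPM in KO and 165 CPM in WT in the venous cluster. They summed to 7.05 CPM in KO and 176 CPM in WT in the Esm1-led cluster, and 12 CPM and 40.8 CPM in the capillary cluster. The part of these markers in Pdgfb was not tested. Lymphatic endothelial cells held 210.5 CPM in KO and 347 CPM in WT, and the barcodes with both endothelial and pericyte markers 84.7 CPM in KO and 223 CPM in WT. Smooth muscle held 17.1 CPM in KO and 42.9 CPM in WT, a log2 ratio of -1.28 on 18 KO and 177 WT UMIs. Markers of the epithelium differed there too, with the 8 epithelial markers at 147 CPM in KO and 454 CPM in WT and the 5 basal markers at 89.1 CPM in KO and 298 CPM in WT. Without cluster 37 (2 KO and 17 WT cells), which carries basal markers, smooth muscle held 16.8 CPM in KO and 32 CPM in WT, a log2 ratio of -0.89 that no longer reached 2-fold. Natural killer cells held 14.6 CPM in KO and 17 CPM in WT, with intervals that overlap, and T cells had 7 KO and 3 WT UMIs, too few for a ratio. In fibroblasts, 1 of the 10 types, the log2 ratio turned to 0.04 with cells thinned to 2000 UMIs. The direction was not particular to Pdgfb: Pdgfra was lower in KO in 10 of 10 measured types and Pdgfrb in 10 of 10. Pdgfa was lower in 6 of 12 and Vegfa in 9 of 14. Pdgfb lies at chr15:79995874-80014977, minus strand.

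**Figure D2:**
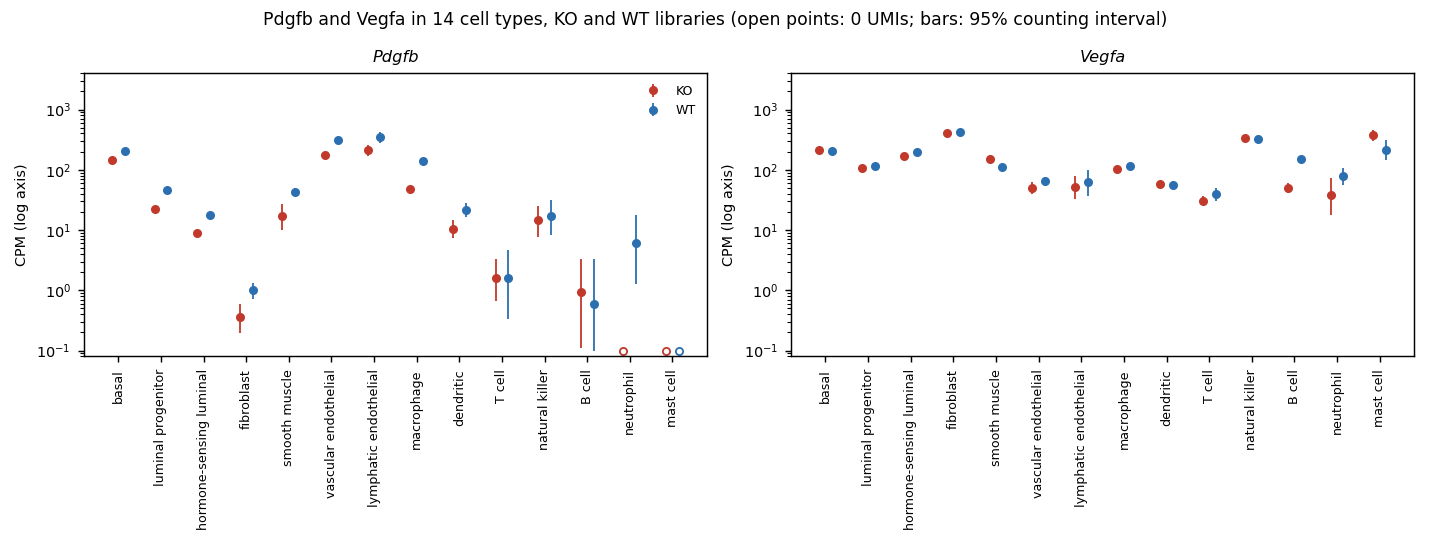
Pdgfb and Vegfa levels (CPM, log axis) in 14 marker-named cell types, with the KO library left of the WT library. Points are sums per type, bars exact 95% counting intervals, open points 0 UMIs; Pdgfb is lower in KO from basal cells to macrophages and dendritic cells, while Vegfa is close in the 2 libraries in fibroblasts, basal cells and natural killer cells.

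Of the PDGF receptors, Pdgfra, a standard marker of fibroblasts and their precursors, was a fibroblast gene in both libraries. It stood at 430.4 CPM in the KO library and 482 CPM in the WT library (16945 KO and 20836 WT UMIs; log2 ratio -0.16). Pdgfrb, the receptor of pericytes and smooth muscle, was shared by fibroblasts (289 CPM in KO and 396 CPM in WT) and smooth muscle (289 CPM in KO and 311 CPM in WT). The barcodes that also hold pericyte markers stood at 311 CPM in KO and 523 CPM in WT. By number, fibroblasts gave 91.4% of Pdgfrb UMIs in KO and 80.4% in WT. Mural cells gave 2.45% in KO and 6.02% in WT, and the barcodes with pericyte markers 2.57% in KO and 2.11% in WT. The counting intervals of KO and WT overlap for Pdgfrb in smooth muscle and do not overlap in fibroblasts or in those barcodes. A UMI of both receptors was present in 60.1% of KO and 70.3% of WT fibroblasts, but in only 2.19% and 6.39% of smooth muscle cells, at the depths each cell had. Pdgfra lies at chr5:75152292-75198215, plus strand, and Pdgfrb at chr18:61045150-61085061, plus strand.

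The fibroblast clusters differed in both receptors. Fibroblasts led by Stra6, Nos1 and Mmp11 held 658 CPM in KO and 736 CPM in WT of Pdgfra and 479 CPM in KO and 614 CPM in WT of Pdgfrb. These were the highest levels among the 5 clusters with at least 100 cells in each library. Those led by Scg3, Adam12 and Enpep held 361 CPM in KO and 419 CPM in WT of Pdgfra and 249.7 CPM in KO and 393 CPM in WT of Pdgfrb. Fibroblasts with Pi16 and Dpp4, genes known from the adventitia around vessels, among their leading genes held 282 CPM in KO and 297 CPM in WT of Pdgfra and 170.1 CPM in KO and 251 CPM in WT of Pdgfrb. Those led by Hhip and Vit held 290.5 CPM in KO and 334 CPM in WT of Pdgfra and 136 CPM in KO and 177 CPM in WT of Pdgfrb. Pdgfrb was lower in KO in each of the 7 fibroblast clusters with at least 20 cells per library. Over all fibroblasts its log2 ratio was -0.45 (-0.49 to -0.42), short of 2-fold.

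Pdgfra stood far below its fibroblast level in epithelial, smooth muscle and vascular endothelial cells, and Pdgfrb did so in epithelial cells. Epithelial cells held 4.51 CPM in KO and 12.4 CPM in WT of Pdgfra (log2 ratio -1.29) and 2.26 CPM in KO and 8.68 CPM in WT of Pdgfrb (-1.57). Smooth muscle held 8.54 CPM in KO and 48.2 CPM in WT of Pdgfra (-2.37, on 9 KO and 199 WT UMIs), and vascular endothelial cells 10.8 CPM in KO and 25.2 CPM in WT (-1.15). Fibroblast markers moved with these values. The summed level of the 8 fibroblast markers, all with UMIs, was 334 CPM in KO and 1261 CPM in WT in epithelial cells. It was 1304 CPM in KO and 5125 CPM in WT in smooth muscle and 1286 CPM in KO and 1911 CPM in WT in vascular endothelial cells. In vascular endothelial cells Pdgfrb stood at 87.4 CPM in KO and 129.5 CPM in WT and the 8 pericyte markers summed to 746 CPM in KO and 1220.4 CPM in WT. The part of these markers in the ratios was not tested. With smooth muscle defined at Leiden resolution 2 or with cells classed one by one, the Pdgfra log2 ratio turned to 0.19 and 0.22.

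Among the 5 ligands, Vegfa alone had at least 20 UMIs over both libraries in all 14 cell types compared, which leave out the few skeletal muscle and Schwann cells. Fibroblasts held 413 CPM in the KO library and 421 CPM in the WT library, a log2 ratio of -0.03 (-0.06 to 0.00). Hormone-sensing cells held 168 CPM in KO and 201 CPM in WT, basal cells 211 CPM in KO and 203 CPM in WT and luminal progenitors 106 CPM in KO and 117 CPM in WT. The endothelial cells that respond to it held 49.8 CPM in KO and 64.3 CPM in WT. Smooth muscle held 152 CPM in KO and 109.5 CPM in WT (log2 ratio 0.47), and without the 5 cells of each library with most Vegfa the log2 ratio was -0.25. Among fibroblast clusters a small one led by the interferon-induced genes Ifit1 and Ifit3 (109 KO and 54 WT cells) stood highest at 1145 CPM in KO and 1002 CPM in WT. The Pi16 fibroblasts stood lowest at 262 CPM in KO and 263 CPM in WT. Luminal progenitors differed as well. The cluster led by Snorc held 137 CPM in KO and 141 CPM in WT and the one led by the milk gene Lalba 29.2 CPM in KO and 27 CPM in WT. Vegfa lies at chr17:46016993-46032369, minus strand.

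Among the 4 classes the VEGF receptors stood highest in vascular endothelium. By number it gave 46.7% of Kdr UMIs in KO and 37.4% in WT, and 56.6% and 57.8% of Flt1 UMIs. Fibroblasts gave 20.1% of Kdr UMIs in KO and 19.3% in WT, and the barcodes with pericyte markers 22.6% and 12%. Other unnamed cells, with the few skeletal muscle and Schwann cells, gave 0.496% in KO and 22.5% in WT. An unnamed cluster led by Rxfp2 and Pnoc (0 KO and 256 WT cells) held 158 CPM of Kdr and 0.341 CPM of Flt1 in WT. In vascular endothelial cells Kdr stood at 720.3 CPM in the KO library and 712 CPM in the WT library (1129 KO and 1693 WT UMIs) and Flt1 at 1389 CPM in the KO library and 1299.9 CPM in the WT library (2177 KO and 3091 WT UMIs). Their log2 ratios were 0.02 (-0.09 to 0.13) and 0.10 (0.02 to 0.18). A UMI of both was present in 81.9% of KO and 78.5% of WT vascular endothelial cells. The Kdr ratio kept its sign under 8 of 16 alternative settings (-0.38 to 0.08), and the Flt1 ratio under 11 (-0.10 to 0.16). Vessel types were unequal in the libraries, with 117 KO and 90 WT capillary cells and 39 KO and 61 WT venous cells. Arterial cells numbered 24 in KO and 42 in WT, and Esm1-led cells 27 in KO and 33 in WT. The part of this make-up in the class ratios was not tested. Kdr varied widely between vessel types, with 1344 CPM in KO and 1257 CPM in WT in the Esm1-led cluster, and 804 CPM in KO and 915 CPM in WT in capillaries. It held 317 CPM in KO and 494 CPM in WT in veins and 133 CPM in KO and 149 CPM in WT in arteries, the same order in both libraries. Flt1 varied less, with 1950.2 CPM in KO and 1875 CPM in WT in the Esm1-led cluster, and 1471 CPM in KO and 1643 CPM in WT in capillaries. It held 1029 CPM in KO and 893 CPM in WT in arteries and 923 CPM in KO and 873 CPM in WT in veins, and the intervals of arteries and veins overlap in each library. Lymphatic endothelium held 421 CPM in KO and 499 CPM in WT of Kdr and 279.8 CPM in KO and 423 CPM in WT of Flt1. These clusters differ in pericyte markers too. Their 8 pericyte markers summed to 1097 CPM in KO and 1768 CPM in WT in the Esm1-led cluster and 1952 CPM in KO and 2084 CPM in WT in arteries. In veins the sum was 363 CPM in KO and 835 CPM in WT, and in capillaries 384 CPM in KO and 753 CPM in WT; the part of these markers in the levels was not tested. In veins Kdr was lower in KO, with counting intervals of 259 to 384 in KO and 444 to 549 in WT.

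Tek, the angiopoietin receptor, stood at 94.4 CPM in the KO library and 102 CPM in the WT library in vascular endothelial cells, a log2 ratio of -0.11 (-0.42 to 0.19). By number, fibroblasts gave most Tek UMIs, 82.4% in KO and 73.9% in WT. Vascular endothelial cells gave 9.78% in KO and 13.8% in WT. Arteries held 144 CPM in KO and 138 CPM in WT, and veins 132 CPM in KO and 121 CPM in WT. Capillaries held 88.5 CPM in KO and 111 CPM in WT and the Esm1-led cluster 42.3 CPM in KO and 55.1 CPM in WT, so the Esm1-led cluster, highest in Kdr, was lowest in Tek among these 4 in both libraries. Pi16 and Dpp4 fibroblasts carried Tek at a level whose interval overlaps that of vascular endothelial cells in both libraries, at 97.8 CPM in KO and 101 CPM in WT (981 KO and 957 WT UMIs). Tek stood at 15.9 CPM in KO and 15.7 CPM in WT in Scg3 and Adam12 fibroblasts, 3.65 CPM in KO and 5.05 CPM in WT in Hhip and Vit fibroblasts and 4.61 CPM in KO and 2.97 CPM in WT in Stra6 fibroblasts. A Tek UMI was seen in 53.2% of KO and 56.5% of WT Pi16 fibroblasts (18.9% and 17.5% at 2000 UMIs per cell), against 0.3% and 0.376% of T cells. Median depths were 8614 and 11894 UMIs in these fibroblasts and 4699 and 5189.5 in T cells. The 8 vascular endothelial markers summed to 32.3 CPM in KO and 50.4 CPM in WT in these fibroblasts and to 9627 CPM in KO and 7281 CPM in WT in vascular endothelial cells. The same fibroblasts also held Kdr at 40.5 CPM in KO and 68.2 CPM in WT, but 2 KO and 47 WT UMIs of Flt1. In the other large fibroblast clusters Kdr reached at most 3.26 CPM in KO and 8.81 CPM in WT.

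**Figure D3:**
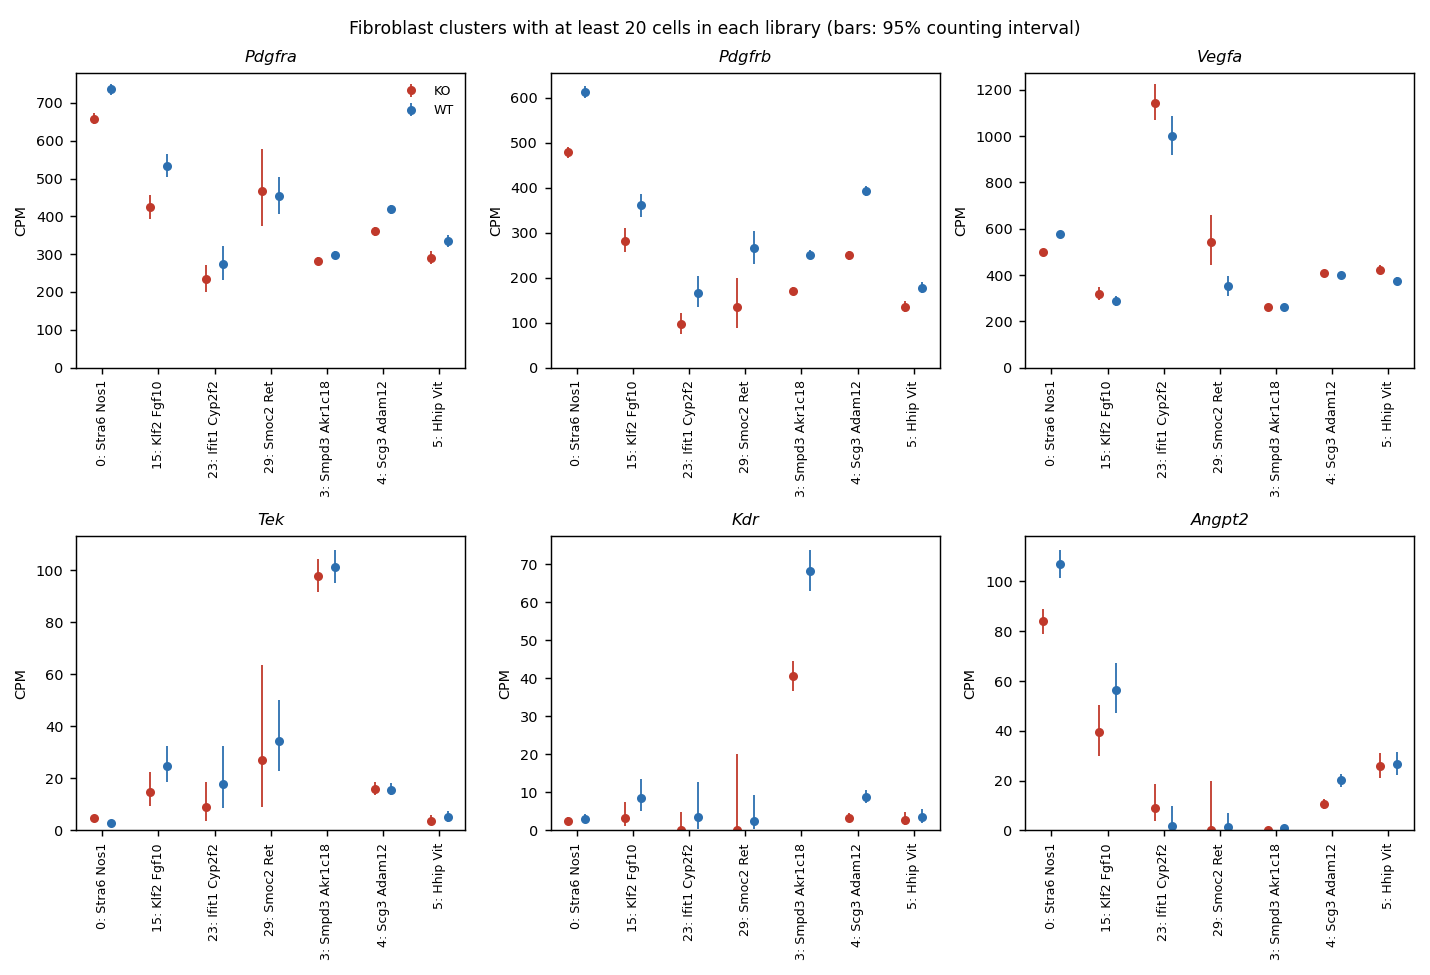
Levels (CPM) of 6 genes in the 7 fibroblast clusters with at least 20 cells in each library, named by number and leading genes, with the KO library left of the WT library. Points are cluster sums and bars exact 95% counting intervals; Tek and Kdr stand highest in cluster 3 (the Pi16 and Dpp4 fibroblasts), Angpt2, Pdgfra and Pdgfrb in cluster 0, and Vegfa in cluster 23, in both libraries.

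The promoters of the 3 receptors that share vascular endothelium, from 250 bases before to 50 bases after the RefSeq start (GRCm38.p6), are shown because all 3 receptors were highest there among the 4 classes. Capitals mark the letters GGAA, the core that ETS transcription factors of endothelium bind, or TTCC, its reverse complement; both strands were searched. Of all 32841 promoters of this length 96% hold at least 1 such match (median 3), against 5 matches in Kdr, 4 in Flt1 and 2 in Tek. Tek also holds 1 GATAA on the plus strand, a GATA factor core present in 25.4% of promoters. Matching letters describe the sequence and are no evidence of binding.

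Kdr, chr5:75978406-75978705, minus strand: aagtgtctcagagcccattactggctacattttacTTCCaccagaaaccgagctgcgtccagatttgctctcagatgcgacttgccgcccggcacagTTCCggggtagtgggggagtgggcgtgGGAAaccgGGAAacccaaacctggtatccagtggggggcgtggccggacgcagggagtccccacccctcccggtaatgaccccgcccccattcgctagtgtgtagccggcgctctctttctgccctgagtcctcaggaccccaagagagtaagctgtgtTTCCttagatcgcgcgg
Flt1, chr5:147725962-147726261, minus strand: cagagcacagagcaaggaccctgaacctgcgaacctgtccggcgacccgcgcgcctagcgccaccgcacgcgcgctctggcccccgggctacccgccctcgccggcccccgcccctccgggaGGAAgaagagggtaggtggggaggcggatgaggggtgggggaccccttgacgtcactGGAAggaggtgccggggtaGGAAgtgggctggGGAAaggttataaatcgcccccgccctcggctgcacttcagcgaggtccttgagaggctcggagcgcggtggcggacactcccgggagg
Tek, chr4:94739039-94739338, plus strand: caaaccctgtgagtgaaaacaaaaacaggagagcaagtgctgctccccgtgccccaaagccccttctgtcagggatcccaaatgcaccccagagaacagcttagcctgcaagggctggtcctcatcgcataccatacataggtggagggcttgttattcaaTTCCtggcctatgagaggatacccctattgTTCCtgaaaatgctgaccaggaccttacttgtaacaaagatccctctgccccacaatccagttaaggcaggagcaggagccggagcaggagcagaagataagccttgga

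Most Kdr UMIs of the epithelium came from a single cluster, named basal, whose barcodes also carried fibroblast and endothelial markers. Epithelial Kdr stood at 0.712 CPM in KO and 2.82 CPM in WT (45 KO and 177 WT UMIs; log2 ratio -1.16). Basal cluster 22, with 16 KO and 162 WT cells, gave 60% of those UMIs in KO and 63.8% in WT. In that cluster the 8 fibroblast markers summed to 12649.5 CPM in KO and 21203 CPM in WT and the 8 vascular endothelial markers to 578 CPM in KO and 385 CPM in WT. Its 5 basal markers summed to less, 4762 CPM in KO and 3775 CPM in WT. Its 8 epithelial markers summed to 1242 CPM in KO and 917 CPM in WT. The part of these markers in its Kdr was not tested. Without cluster 22 the epithelial log2 ratio was -0.67 for Kdr, -0.98 for Pdgfra, -1.08 for Pdgfrb and -1.001 for Pdgfb. Flt1 was also present in hormone-sensing cells, at 8.81 CPM in KO and 9.33 CPM in WT (230 KO and 221 WT UMIs), where the intervals overlap.

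Angpt2, the antagonist ligand of Tek, was highest in lymphatic endothelial cells, at 275 CPM in the KO library and 199.5 CPM in the WT library. In these 39 KO and 30 WT cells, 5 cells gave 52.3% of its KO UMIs and 70.7% of its WT UMIs. Vascular endothelial cells held 87.4 CPM in KO and 132 CPM in WT (log2 ratio -0.59, -0.90 to -0.31) and smooth muscle 53.1 CPM in KO and 47 CPM in WT. In veins it stood at 46.1 CPM in KO and 184 CPM in WT (15 KO and 130 WT UMIs), with counting intervals of 25.8 to 76.1 and 153 to 218 that do not overlap. Of these UMIs, 80% in KO and 50% in WT came from 5 cells. Capillaries held 94.5 CPM in KO and 127 CPM in WT, with intervals that overlap. By number, fibroblasts gave most Angpt2 UMIs, 73.2% in KO and 68.5% in WT. Lymphatic endothelial cells gave 6.01% in KO and 2.08% in WT, and vascular endothelial cells 7.41% in KO and 11.3% in WT. The Stra6 fibroblasts held 83.9 CPM in KO and 107 CPM in WT (1074 KO and 1404 WT UMIs), while the Pi16 fibroblasts, which carry Tek, had 1 KO and 8 WT UMIs. Angpt2 lies at chr8:18690263-18741562, minus strand, inside the span of Mcph1 on the opposite strand; whether counting used strand is not given in the sources used here.

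Angpt1, the activating ligand, came mostly from fibroblasts, which gave 72.9% of its UMIs in KO and 68.4% in WT. Epithelial cells gave 17.8% in KO and 15.7% in WT. By level, the barcodes with pericyte and endothelial markers held 21.4 CPM in KO and 15.1 CPM in WT. Smooth muscle held 20.9 CPM in KO and 13.8 CPM in WT (22 KO and 57 WT UMIs). Fibroblasts held 14.1 CPM in KO and 14 CPM in WT and luminal progenitors 4.61 CPM in KO and 5.05 CPM in WT, and in each of these the intervals of the libraries overlap. Lymphatic endothelial cells had 0 UMIs in both libraries, which allows up to 7.43 CPM in KO and 10.3 CPM in WT. The interferon-marked fibroblasts held 33.8 CPM in KO and 14.1 CPM in WT on 26 KO and 8 WT UMIs. Angpt1 lies at chr15:42424723-42676977, minus strand, Tek at chr4:94739289-94874976, plus strand, Kdr at chr5:75932827-75978458, minus strand and Flt1 at chr5:147561604-147726011, minus strand.

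**Figure D4:**
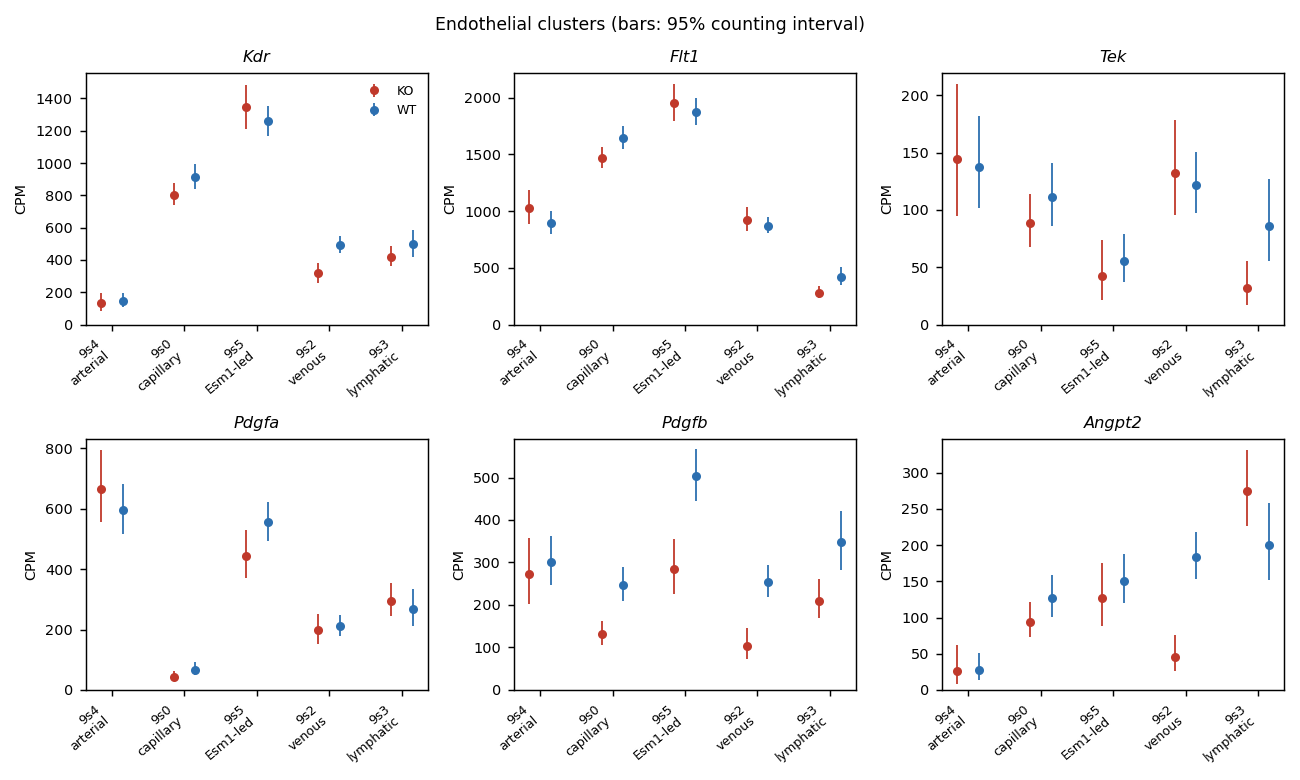
Levels (CPM) of 6 genes in 4 vascular and 1 lymphatic endothelial cluster, with the KO library left of the WT library. Points are cluster sums and bars exact 95% counting intervals; Kdr and Flt1 are highest in the Esm1-led cluster in both libraries, and Pdgfb and Angpt2 in the venous cluster are lower in KO.

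Members past the 2-fold mark were all lower in KO, and none was 2-fold higher in KO in any of the 4 classes. In epithelial cells 4 of 10 measured members were at least 2-fold lower in KO (Pdgfb, Pdgfra, Pdgfrb and Kdr). Among all genes, 1.69% of the 16234 genes with at least 20 UMIs were 2-fold lower, and 0.148% were 2-fold higher. Basal cells, highest in Pdgfb, were 828 of the 3044 KO and 1428 of the 3088 WT epithelial cells. Pdgfb reached 2-fold in none of the 3 subtypes, and with the subtypes weighted equally its log2 ratio was -0.59. The count was 2 without cluster 22, 2 with the 3 subtypes weighted equally, 1 with at most 5% mitochondrial UMIs and 0 with 5 CPM added. In fibroblasts 0 of 10 passed, against 0.624% of genes lower and 0.128% higher. The nearest was Flt1, at 1.37 CPM in KO and 3.72 CPM in WT (log2 ratio -0.99). In mural cells 2 of 8 measured members were lower (Pdgfb and Pdgfra), against 8.39% of genes lower and 1.39% higher, and Kdr and Tek had under 20 UMIs. The mural count was 1 without cluster 37, where Pdgfb no longer passed. In vascular endothelial cells 1 of 10 was lower (Pdgfra), against 4.59% of genes lower and 1.1% higher. The median log2 ratio of the measured members was -0.49 in epithelial cells, -0.40 in fibroblasts, -0.03 in mural cells and -0.40 in vascular endothelial cells. Over all genes measured, in the same order of classes, it was -0.06, -0.06, -0.09 and -0.06.

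**Figure D5:**
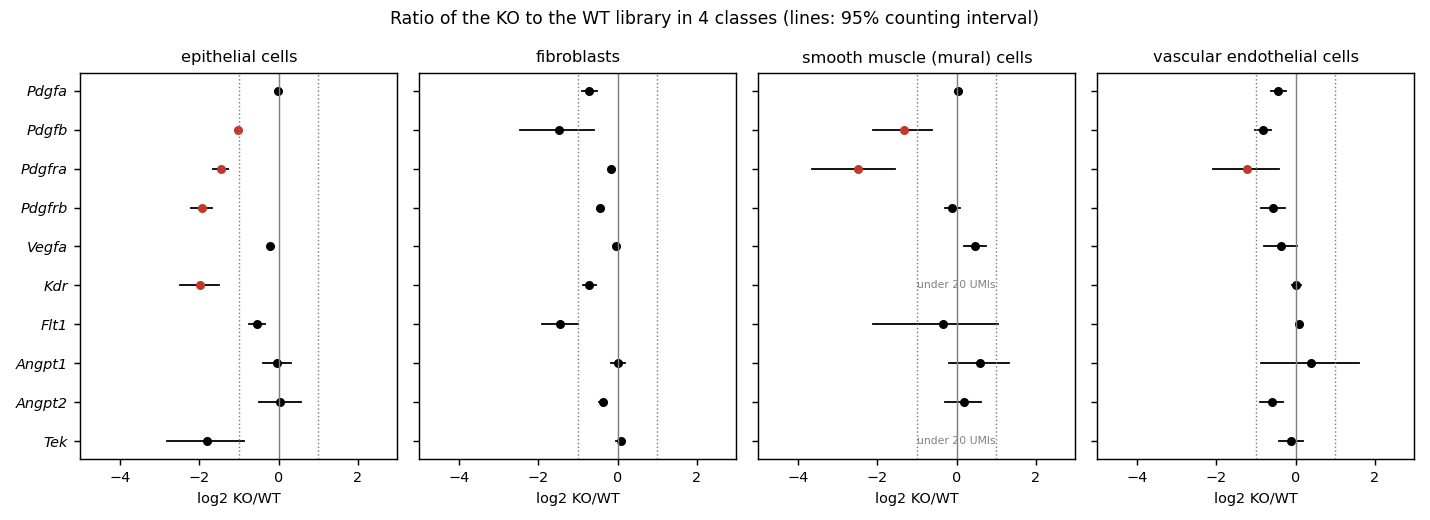
Log2 ratio of the KO to the WT level of each gene in 4 cell classes, here with no CPM added; lines are exact 95% counting intervals, dotted lines mark 2-fold, and red points are genes past 2-fold with 1 CPM added to each level. The red points, Pdgfb, Pdgfra, Pdgfrb and Kdr in epithelial cells, Pdgfb and Pdgfra in mural cells and Pdgfra in vascular endothelial cells, all lie left of 0.

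Other genes of the same pathways were read as 5 lists. Of the 7 other ligands (Pdgfc, Pdgfd, Vegfb, Vegfc, Vegfd, Pgf and Angpt4), none passed 2-fold in any class. Their median log2 ratio was -0.29 in epithelial cells, 0.03 in fibroblasts, 0.03 in mural cells and 0.34 in vascular endothelial cells. The ligand with most UMIs was Pdgfc in epithelial cells (20.4 CPM in KO and 29.5 CPM in WT), and Vegfd in fibroblasts (61.7 CPM in KO and 69.3 CPM in WT). Pgf, a ligand of Flt1, had most in mural cells (57.9 CPM in KO and 34.2 CPM in WT) and vascular endothelial cells (54.9 CPM in KO and 47.9 CPM in WT). Of the 6 other receptors and co-receptors, Ptprb, the phosphatase that restrains Tek, stood at 727 CPM in KO and 685 CPM in WT in vascular endothelial cells. It was past 2-fold lower in KO epithelial cells (40 KO and 148 WT UMIs) and higher in KO mural cells (11 KO and 9 WT UMIs). Pdgfrl was lower in KO mural cells (2 KO and 39 WT UMIs; log2 ratio interval -5.41 to -0.37) and led the list in epithelial cells (12.5 CPM in KO and 18 CPM in WT). The VEGF co-receptor Nrp1 led it in fibroblasts (84.8 CPM in KO and 126 CPM in WT) and mural cells (20.9 CPM in KO and 31 CPM in WT). Among these receptors the median log2 ratio was -0.48 in epithelial cells, -0.45 in fibroblasts, -0.66 in mural cells and -0.07 in vascular endothelial cells.

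The 8 regulators of Vegfa held 1 gene past 2-fold, Egln3, an oxygen sensor that marks HIF for destruction, higher in KO mural cells on 10 KO and 10 WT UMIs. Hif1a led in epithelial cells (325 CPM in KO and 366 CPM in WT), fibroblasts (249.6 CPM in KO and 242 CPM in WT) and mural cells (913 CPM in KO and 1044 CPM in WT). Its relative Epas1 led in vascular endothelial cells (665 CPM in KO and 738 CPM in WT). Of the 12 hypoxia-response genes only Ankrd37 passed, higher in KO mural cells (27.5 CPM in KO and 9.21 CPM in WT, 29 KO and 38 WT UMIs). The glycolytic enzyme Ldha had most UMIs of the list over both libraries in all 4 classes, with 251 CPM in KO and 232 CPM in WT in epithelial cells and 283 CPM in KO and 270.0 CPM in WT in fibroblasts, where Ndrg1 was higher in WT (231 CPM in KO and 281 CPM in WT). Ldha held 396 CPM in KO and 267 CPM in WT in mural cells and 561 CPM in KO and 443 CPM in WT in vascular endothelial cells. The median log2 ratio of the regulators was -0.05 in epithelial cells, -0.08 in fibroblasts, 0.05 in mural cells and 0.06 in vascular endothelial cells. That of the hypoxia genes was -0.10 in epithelial cells, -0.06 in fibroblasts, -0.06 in mural cells and 0.13 in vascular endothelial cells.

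Of the 10 endothelial VEGF-response and tip-cell genes, 3 passed in vascular endothelial cells. Apln, a peptide of tip cells, was higher in KO (24 KO and 16 WT UMIs), and Kcne3, a tip-cell channel subunit, was lower (4 KO and 18 WT UMIs). Igfbp3, an IGF-binding protein, was lower in KO endothelium (72.7 CPM in KO and 152 CPM in WT) and also in KO epithelial cells (137 CPM in KO and 285 CPM in WT). The chemokine receptor Cxcr4 was lower in KO mural cells (1 KO and 24 WT UMIs; log2 ratio interval -7.98 to 0.00). The basement membrane gene Col4a1 had most UMIs in each class, with 1374 CPM in KO and 1482 CPM in WT in vascular endothelial cells, and 955 CPM in KO and 1086 CPM in WT in mural cells. It held 1002 CPM in KO and 1362 CPM in WT in fibroblasts and 235 CPM in KO and 466 CPM in WT in epithelial cells. The list's median log2 ratio was -0.42 in epithelial cells, -0.20 in fibroblasts, -0.26 in mural cells and -0.19 in vascular endothelial cells.

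Across 24 points, which are 13 cell types with at least 50 cells in a library and share the 2 libraries, the 3 genes whose log2 level followed each member most closely by Pearson's r are given as a description, with r for the first. For the PDGF ligands these were Bcam (r = 0.89), Map2k3 and Ppp1r14a beside Pdgfa, and Palmd (r = 0.83), Map2k3 and Atxn1 beside Pdgfb. Pdgfra ran with Dcn (r = 0.98), Serpinf1 and Col1a2, and Pdgfrb with Rarres2 (r = 0.97), Ecm2 and Ntrk2. Vegfa ran less closely with any gene, with Ift20 (r = 0.82), Abhd2 and Scd2 first. The endothelial receptors ran with other endothelial genes: Kdr with Plvap (r = 0.96), Adgrf5 and Bcl6b, and Flt1 with Tie1 (r = 0.95), Emcn and Sox17. Tek ran with Ly6c1 (r = 0.95), Ramp2 and Unc45b, Angpt2 with Ldb2 (r = 0.94), Ecm2 and Ebf3, and Angpt1 with Mosmo (r = 0.89), C1qtnf1 and Sox5.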

How the data were processed

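Single-cell 3′ RNA libraries of 2 samples, 1 KO and 1 WT, were used. Per the submitters' processing notes and the file headers, the authors made the deposited UMI counts with Cell Ranger 5.0.1 and mm10, and the notes also name Seurat 3.2.0; the annotation release and use of strand are not given in the sources used here. Other deposited columns hold only barcodes and gene names. The KO library holds 139757797 UMIs and the WT library 160026788.

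A barcode was kept if it had 500 or more genes, 1000 or more UMIs and no more than 10% of UMIs from mitochondrial genes. Scrublet (scanpy 1.11.5) removed 4.17% of KO and 1.88% of WT barcodes as doublets. How many doublets remain uncalled is unknown, and their part in the WT-high values of epithelial, mural and macrophage cells was not tested. Both libraries were clustered together (2000 variable genes, 30 components, 20 neighbours, Leiden resolution 1, leidenalg 0.10.2) without the 10 genes and their pathway lists. A cluster was named from at least 3 markers of a type, each at least 2-fold above other cells. Unnamed clusters were divided again at resolution 0.5. Chosen after the clusters were seen: also dividing clusters with markers of a second class, a mean log2 fold of at least 1, setting apart clusters with at most 5% of cells from 1 library, and leaving unnamed those with more markers of another class among their 10 leading genes or with low depth.

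UMIs were summed per class and library (Python 3.11.15, numpy 2.4.6, scipy 1.17.1). A gene counted as past 2-fold with at least 20 UMIs over both libraries and an absolute log2 ratio of at least 1, with 1 CPM added. Poisson, Clopper-Pearson and conditional ratio intervals are exact, at 95%, and cover counting error only. A count of 0 allows up to 3 counts. The ratio code was tested on simulated data; edgeR 4.0.16 in R 4.3.3 gave TMM factors for an alternative. Positions are from GENCODE (GRCm38) and promoters from RefSeq. Named genes are all 10 members, list genes past 2-fold, the list gene with most UMIs per class, and the 3 genes closest to each member. Members, lists and markers were chosen with earlier results of these data known. With 1 library per genotype, animal, library and genotype cannot be told apart.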

Additional observations from a re-analysis of the deposited data

Results flagged for a closer look

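Unnamed clusters, which entered no class, held 3 members above their level in each of the 4 classes of the same library. Pdgfra stood at 625 CPM in WT cells of an unnamed cluster led by Slc26a7, Dlk1 and Isl1 (3 KO and 69 WT cells), where the highest of the 4 classes in WT was 482 CPM. Pdgfrb stood at 874 CPM in WT cells of an unnamed cluster led by Tcf19, C530008M17Rik and Kifc1 (0 KO and 30 WT cells, 39 Pdgfrb UMIs), against 396 CPM. The cells of that cluster are shallow, with a median of 1382 UMIs against 11130 over all WT cells kept. Vegfa stood at 956 CPM in WT cells of an unnamed cluster led by Slc6a2, Chrdl2 and Rspo3 (0 KO and 88 WT cells), against 421 CPM. A larger unnamed cluster led by Rxfp2 and Pnoc (0 KO and 256 WT cells) also lay above, with Vegfa at 767 CPM in WT. These clusters hold almost no KO cells, so genotype and cell makeup cannot be told apart in them.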

How the results depend on the processing

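The count of members past 2-fold in epithelial cells, 4 as reported, was 2 with all deposited barcodes, 2 with called doublets kept, 1 with at most 5% mitochondrial UMIs, 0 with 5 CPM added, 2 without basal cluster 22 and 2 with the subtypes weighted equally, the last pair chosen after the data were seen. In fibroblasts, 0 as reported, it was 1 with the mitochondrial maximum of 5%, 2 with 0.1 CPM added and 1 with cells thinned to 2000 UMIs. In mural cells, 2 as reported, it was 1 with all barcodes, 1 with doublets kept, 1 without cluster 37 (chosen after the data were seen) and 5 with each library clustered alone. In vascular endothelial cells, 1 as reported, it was 2 with each library clustered alone, 2 with thinned cells, 0 with 5 CPM added and 0 with a minimum of 100 UMIs. The cause of these shifts was not tested. Pdgfra in mural cells turned to a log2 ratio of 0.19 at Leiden resolution 2 and 0.22 with cells classed one by one. Over the alternatives, the Pdgfb log2 ratio kept its sign under all 16 alternatives in vascular endothelial cells (-1.04 to -0.71) and under all 18 in epithelial cells (-1.14 to -0.59). No paired analysis was possible because each genotype is 1 library, and for the same reason no replicate could be left out. Depth limits the low counts: under 20 UMIs over both libraries no ratio was read.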

Other observations

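Immune cells were also sources of Vegfa outside the 4 classes. Natural killer cells held 332 CPM in KO and 324 CPM in WT and mast cells 377 CPM in KO and 216 CPM in WT (89 KO and 30 WT UMIs), with macrophages at 104 CPM in KO and 117 CPM in WT, dendritic cells at 57.8 CPM in KO and 56.5 CPM in WT and T cells at 30.6 CPM in KO and 39.3 CPM in WT. In B cells Vegfa stood at 50.7 CPM in KO and 149 CPM in WT, a log2 ratio of -1.53. The B cells are spread unequally over 2 clusters. Cluster 13 (386 KO and 127 WT cells) held 18.9 CPM in KO and 21 CPM in WT, and cluster 28 (24 KO and 95 WT cells) held 233 CPM in KO and 291 CPM in WT. B cells also held Pdgfra at 33.2 CPM in KO and 104 CPM in WT, and the 8 fibroblast markers summed to 5357 CPM in KO and 17579 CPM in WT there; their part in these values was not tested. Dendritic cells held Pdgfb at 10.5 CPM in KO and 21.8 CPM in WT and Pdgfa at 24.6 CPM in KO and 31.6 CPM in WT, and macrophages Pdgfa at 70.4 CPM in KO and 109.8 CPM in WT. The 8 epithelial markers summed to 2785 CPM in KO and 2488 CPM in WT in all macrophages. Their part in the macrophage levels of Vegfa and Pdgfa was not tested.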
